A study of Mus musculus with 2 samples.

Results

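Cycling tumour-like cells made up 2065 of the 24830 cells in 2 single-cell RNA libraries of mouse lung tumours. Tumour-like cells were taken by a gate on unique molecular identifiers (UMIs, the count of distinct captured RNA molecules). A cell in the gate held at least 5000 UMIs, at most 20% of them mitochondrial, and fewer than 5 UMIs per 10000 of Lyz2 and of the summed C1qa, C1qb and C1qc. It also held no UMI of Ptprc or Cd3e and at least 1 UMI of Hmga2, Tnfrsf12a or Igf2bp2. Of the 9389 cells in the gate, those with at least 10 summed UMIs of Top2a, Cenpf, Ube2c, Ccnb1 and Cdc20 per 10000 UMIs were kept as cycling, which took 967 control and 1098 knockdown cells. The other 7324 cells of the gate (3742 control, 3582 knockdown) are called the other tumour-like cells. These 5 genes chose the cells, so their levels, and those of every gene set beside them in the same cells, are descriptions with no test.

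The tumours were lung cancer grafts of LLC, the Lewis lung carcinoma line of the mouse. The control library came from a tumour labelled NC and the knockdown library from a tumour labelled SH, in which a short hairpin RNA was directed at Gfpt2. Gfpt2 encodes an enzyme that starts the hexosamine pathway, which makes UDP-N-acetylglucosamine. The strain, sex and age of the hosts, the number of animals behind a library, the hairpin's sequence and the vector of the control are not given in the sources used here. Each group had 1 library, so no test between groups was possible, and all intervals below are exact 95% intervals that cover counting error only.

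A dividing cell first copies its DNA and then builds a spindle that pulls the copies apart. Transcripts of the replication machinery are known to peak early in this cycle and those of the mitotic machinery late. Cyclin B with the kinase Cdk1 drives entry into mitosis, and the anaphase-promoting complex, which Cdc20 activates and Ube2c supplies with ubiquitin, ends it by marking cyclin B and securin for destruction. Promoters of the late genes are known for a pair of elements, the cell cycle homology region (CHR) and the CCAAT box, which bind the MuvB and B-Myb complexes and the factor NF-Y. Promoters of the early genes are known for E2F sites. In tumours the late genes are commonly read as a measure of growth.

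The promoters of the 5 genes of the selection rule, of Cdk1 and of Birc5 are shown to give examples with and without these elements. Each line gives the 120 bases that end just before the annotated start, 5′ to 3′ on the gene's own strand, from the RefSeq promoter table of build GRCm38.p6. Capitals mark the CHR, searched as TTTGAA or its reverse complement TTCAAA, and the CCAAT box, searched as CCAAT or its reverse complement ATTGG. Matches of different motifs were counted separately and could overlap.
Ube2c, chr2:164769809-164769928, forward strand: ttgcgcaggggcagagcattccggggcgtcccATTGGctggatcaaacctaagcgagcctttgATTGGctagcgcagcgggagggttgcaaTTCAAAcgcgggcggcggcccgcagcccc
Top2a, chr11:99024190-99024309, reverse strand: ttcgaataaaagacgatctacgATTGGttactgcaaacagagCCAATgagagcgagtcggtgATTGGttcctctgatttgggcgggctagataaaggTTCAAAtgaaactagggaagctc
Cdc20, chr4:118437344-118437463, reverse strand: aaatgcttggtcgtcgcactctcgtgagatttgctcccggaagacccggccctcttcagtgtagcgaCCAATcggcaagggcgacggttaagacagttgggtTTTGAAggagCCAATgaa
Cdk1, chr10:69352913-69353032, reverse strand: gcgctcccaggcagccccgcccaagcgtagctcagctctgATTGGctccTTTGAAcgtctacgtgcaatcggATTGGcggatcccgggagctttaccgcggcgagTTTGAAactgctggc
Ccnb1, chr13:100786487-100786606, reverse strand: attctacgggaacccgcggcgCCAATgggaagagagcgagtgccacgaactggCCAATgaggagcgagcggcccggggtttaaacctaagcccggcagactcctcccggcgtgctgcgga
Cenpf, chr1:189688087-189688206, reverse strand: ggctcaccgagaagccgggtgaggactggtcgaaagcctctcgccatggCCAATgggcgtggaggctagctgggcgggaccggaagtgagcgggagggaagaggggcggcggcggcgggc
Birc5, chr11:117849117-117849236, forward strand: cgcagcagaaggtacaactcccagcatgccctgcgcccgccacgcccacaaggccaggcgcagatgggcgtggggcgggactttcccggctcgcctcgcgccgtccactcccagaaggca

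Ube2c, Top2a and Cdc20 each held 1 CHR match in this window, at 29, 23 and 18 bases before the start, and Cdk1 held 2. The windows of Ccnb1 and Cenpf held 2 and 1 CCAAT matches and none of the CHR letters, and that of Birc5 held neither. The windows of Aurka, Plk1 and Ccnb2, which are not printed, held CCAAT and no CHR letters, so 4 of the 10 windows read held the CHR letters. Motifs were then counted over the 250 bases before the start. Start sites on chromosome 18 and promoter sequences not of the set length were left out beforehand. The rest of the table matched 123 of the 147 genes of the 10 cell division lists used below, with 143 start sites. The CHR letters stood at 30.8% of these sites, at 8.57% of the 35 start sites of replication genes and at 16.0% of all 32851 start sites kept. CCAAT stood at 62.9%, 57.1% and 33.8%, and the E2F letters GCGGGAA or TTCCCGC at 5.59%, 31.4% and 3.82%. The division genes thus held the CHR letters more often than all promoters and the replication genes the E2F letters, as a description of letters and not of binding. CHR and CCAAT letters were both present at 23.8% of division start sites and at 5.55% of all. With 50 bases after the start added, the shares at division start sites were 48.95% for the CHR, 10.5% for E2F and 37.8% for CHR with CCAAT.

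The cells had the markers of their label. Birc5, the survivin subunit of the chromosomal passenger complex and a marker the selection did not use, had 728 CPM (the gene's UMIs per 1000000 UMIs of the same cells) in control and 725 CPM in knockdown cycling cells, against 163 and 160 CPM in the other tumour-like cells. Mki67, the proliferation antigen Ki-67, had 138 and 143 CPM against 24.0 and 24.9 CPM. The 3 tumour markers summed to 525 and 523 CPM, against 221 and 249 CPM in leukocytes. The gate asked for at least 1 UMI of these markers, so their sums are not read as evidence for the label. Leukocytes are taken here as cells of at least 5000 UMIs with a Ptprc UMI and either Cd3e or at least 5 per 10000 of Lyz2 or C1q. Xist, which is transcribed in female cells, had 2.60 and 2.40 CPM in cycling tumour-like cells and 306 and 253 CPM in leukocytes. The 10 macrophage markers summed to 170 and 202 CPM against 19642 and 17770 CPM in leukocytes, and the gate had used 4 of them. T or NK cell markers summed to 4.72 and 5.26 CPM with 2 of 9 at 0 in both libraries, of which Cd3e was kept at 0 by the gate, endothelial markers to 4.50 and 5.42 CPM with 2 and 1 of 5 at 0, and lung epithelial markers to 0.512 and 0.662 CPM with 3 of 6 at 0. The fibroblast list stood apart from these: it summed to 1545 and 1634 CPM, nearly all of it Dcn (723 and 628 CPM) and Col3a1 (773 and 939 CPM), while Lum was at 0.0732 and 0.207 CPM. In the other tumour-like cells the fibroblast list summed to 2646 and 3012 CPM.

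The libraries held 11977 control cells with 165824226 UMIs and 12853 knockdown cells with 138402860 UMIs. Cycling cells were deeper than the other tumour-like cells, with medians of 26899 and 19674 UMIs against 18616.5 and 14783. The knockdown library was shallower in both. The libraries shared 37 cell barcodes, and none of them was in cycling cells of both. By rank of Scrublet score, 44 control (4.55%) and 26 knockdown (2.37%) cycling cells stood among the likely doublets, against 2.97% and 2.35% of the other tumour-like cells. Doublets were kept in the values below.

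Gfpt2 itself was rare. Cycling control cells held 66 Gfpt2 UMIs, or 2.42 CPM (1.87 to 3.07), and cycling knockdown cells held 18, or 0.745 CPM (0.442 to 1.18). The knockdown value was lower, with a log2 ratio of -1.70 and a range of -2.80 to -0.67 from the pair of intervals. The other tumour-like cells went from 1.71 to 0.644 CPM, a log2 ratio of -1.41. Gfpt2 had too few UMIs to pass the filter for the gene comparisons, which was at least 100 UMIs over the tumour-like cells of each library. Leukocytes, taken as above, held 37 control and 10 knockdown Gfpt2 UMIs, or 1.15 and 0.445 CPM. No interval was computed for leukocytes, so their lower knockdown value is a description. In the control library 48.5% of the cycling cells' Gfpt2 UMIs stood in 10 cells. Without cells of at least 5 Krt16 and Klk8 UMIs per 10000, an alternative chosen after seeing the data that leaves out 49 control and 3 knockdown cycling cells, 26 control and 18 knockdown UMIs remained, or 1.01 and 0.746 CPM. The log2 ratio was then -0.43 with a range of -1.74 to 0.84 in cycling cells, and -0.64 with a range of -1.49 to 0.19 in the others. Among the tumour-like cells that remained, a lower Gfpt2 in the library labelled as its knockdown was not detectable at this depth. Krt16 and Klk8 were themselves lower in the knockdown library. In cycling cells, leaving those cells out took Gfpt2 UMIs from the control library only. The change in the ratio therefore follows in part from the choice, and nothing more is read from it.

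Of tumour-like control cells 20.5% (19.4 to 21.7) were cycling, and of tumour-like knockdown cells 23.5% (22.3 to 24.7). Their ratio was 1.14, with a range of 1.02 to 1.27 from the pair of intervals. The selection score had no gap at its lower limit: 221 control and 206 knockdown cells scored 8 to 10 per 10000 UMIs, and 142 and 177 scored 10 to 12. Cells just below and just above it had similar levels, for example 541 and 592 CPM of Birc5 and 202 and 239 CPM of Cdk1 in the control library. The class is therefore a range of a score and not a separate type. With every cell thinned to 5000 UMIs the shares were 23.3% and 24.9%. At a limit of 20 they were 9.92% and 9.91%, and with Birc5, Aurka, Plk1, Ccnb2 and Tpx2 in place of the 5 genes they were 18.2% and 18.0%. The excess in the knockdown library was thus absent among the cells with the highest scores and with the other 5 mitotic genes. For comparison, the same limit took 12.3% (11.0 to 13.6) of control and 10.8% (9.47 to 12.3) of knockdown leukocytes.

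**Figure D1:**
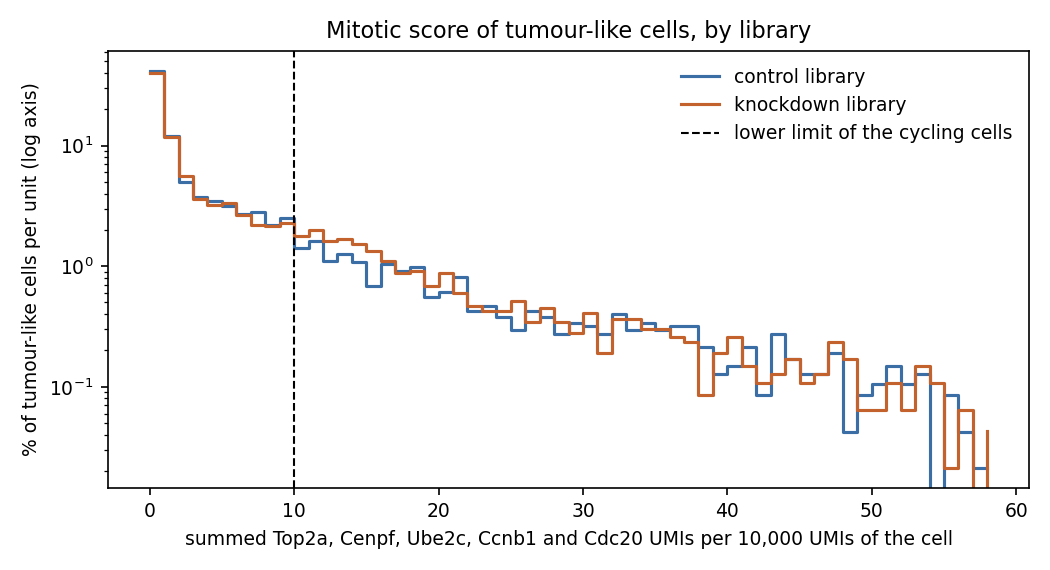
Share of tumour-like cells (log axis, %) in each unit of the selection score, in summed UMIs of the 5 genes per 10000 UMIs, for the control and the knockdown library, with the dashed line at the limit of 10; scores of 59 and above are not drawn. Both curves fall without a gap at the limit, and the knockdown curve lies above the control curve mostly between 10 and 17.

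The score was carried mainly by 2 of its genes. Ube2c, the ubiquitin-conjugating enzyme of the anaphase-promoting complex, gave 43.8% of the score's UMIs in control and 42.3% in knockdown cycling cells, and Top2a, the topoisomerase that untangles chromosomes, gave 27.0% and 29.8%. Cenpf, Cdc20 and Ccnb1 gave 14.6%, 7.70% and 6.90% in the control library. In 182 control (18.8%) and 260 knockdown (23.7%) cells Top2a alone gave over 50% of the score. Ube2c alone did so in 218 control (22.5%) and 221 knockdown (20.1%) cells. Of the cycling cells, 72.1% (control) and 64.1% (knockdown) also reached 10 per 10000 UMIs with the 5 mitotic genes outside the rule, against 4.25% and 3.91% of the other tumour-like cells.

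Set against the other tumour-like cells, cycling cells had 316 genes at least 2-fold higher in the control library (2.65% of 11942 genes) and 324 in the knockdown library (2.71%), and 287 were higher in both (2.4%). At least 2-fold lower were 101 (0.846%) and 95 (0.796%) genes, with 47 in both (0.394%). The median log2 ratio over all genes was -0.03 and -0.02. Of the 147 genes in the 10 cell division lists, 107 were at least 2-fold higher in both libraries. In the text below, a gene is called higher or lower in this comparison when its CPM differed by at least 2-fold, and list medians are log2 ratios of cycling over other tumour-like cells, control first. The rule chose the cells by genes of these lists, so nothing is read from the counts beyond their size.

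Mitotic kinases and phosphatases, which switch the cell into mitosis, were higher for 14 and 15 of 17 genes, with medians of 2.12 and 2.12. Aurka, the kinase of the spindle poles, had 123 and 97.6 CPM in cycling cells against 9.45 and 7.39 CPM in the others. Plk1, the polo-like kinase, had 95.4 and 79.0 CPM against 7.65 and 7.03 CPM. Cdc25a, a phosphatase that acts at the start of DNA synthesis, stood apart with 17.7 and 18.4 CPM against 15.9 and 15.8 CPM. Each of the 9 genes of the chromosomal passenger complex and spindle checkpoint was higher in both libraries, from Bub3 (264 and 224 CPM against 110 and 102) to Sgo2a, the protector of centromeric cohesin (91.5 and 90.0 CPM against 11.8 and 11.8).

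All 12 mitotic kinesins, the motors of the spindle, were higher in both libraries, with medians of 2.83 and 2.77, the largest of the 13 cell cycle lists. Kif11, which pushes the spindle poles apart, had 117 and 111 CPM against 16.4 and 15.7 CPM. Kinetochore and centromere genes were higher for 22 and 23 of 24, with medians of 1.79 and 1.89. Cenpa, the histone that marks centromeres, had 322 and 311 CPM against 57.0 and 57.0 CPM. Spindle and tubulin genes were higher for 17 and 16 of 19, with medians of 2.24 and 2.11. Tubb5, a beta-tubulin, had 1750 and 1770 CPM against 771 and 774 CPM, and Tuba1b, an alpha-tubulin, had 1007 and 987 CPM against 498 and 499 CPM. Kif5b, a motor of cargo transport, had 311 and 304 CPM against 300.2 and 288 CPM. Cytokinesis genes, which cut the cell in 2, were higher for 7 of 8 in both libraries, with medians of 2.31 and 2.31. The exception, Rhoa, a GTPase with many roles outside division, had 662 and 689 CPM against 651 and 687 CPM.

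Of 12 genes of the anaphase-promoting complex and mitotic exit, 5 were higher in both libraries. These were Ube2c, with 1056 and 954 CPM against 73.2 and 70.9 CPM, Cdc20, with 186 and 166 CPM against 26.0 and 21.4 CPM, the inhibitor Fbxo5, the activator Fzr1 and the separase Espl1. The core subunit Anapc5 had 135 and 132 CPM against 111 and 109 CPM, and Pttg1, which encodes securin, had 63.6 and 62.4 CPM against 57.4 and 60.6 CPM. Among condensin, cohesin and topoisomerase genes, 9 and 10 of 15 were higher, with medians of 1.25 and 1.21. The condensin subunit Smc4 had 263 and 255 CPM against 82.8 and 78.7 CPM, while the cohesin subunit Smc3 had 106 and 106 CPM against 81.6 and 80.7 CPM. Top2a had 653 and 671 CPM against 115 and 119.99 CPM, and its paralog Top2b had 54.3 and 56.3 CPM against 54.1 and 56.5 CPM.

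Of 15 cyclin and CDK genes 7 were higher in both libraries: the mitotic Ccnb1, Ccnb2, Ccna2, Ccnf and Cdk1 and the CDK-binding Cks1b and Cks2. Ccnb1 had 167 and 142 CPM against 14.4 and 12.2 CPM, and Cdk1 had 373 and 362 CPM against 78.6 and 86.4 CPM. Ccne1, the cyclin of entry into DNA synthesis, had 22.9 and 26.7 CPM against 30.8 and 29.6 CPM, and Ccnd1, the cyclin that responds to growth factors, had 527 and 483 CPM against 367 and 325 CPM. Of 17 CDK inhibitors and p53 response genes 3 and 4 were higher. They included Cdkn2d, which encodes the inhibitor p19, with 147 and 146 CPM against 27.2 and 31.0 CPM, and Cdkn3, a phosphatase that acts on CDKs, with 88.5 and 90.4 CPM against 21.6 and 20.7 CPM. Cdkn1a, the p53 target p21, had 65.1 and 73.1 CPM against 75.3 and 77.2 CPM, and Trp53 had 76.7 and 78.8 CPM against 70.8 and 71.6 CPM.

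Replication genes differed far less than mitotic genes between the classes. Of 36, 2 were higher in the control library (Rrm1 and Tk1) and 4 in the knockdown library (with Clspn and Tyms), with medians of 0.28 and 0.42. The medians changed sign to -0.13 and -0.02 when the limit of the score was 20 and were 0.77 and 0.90 when it was 5. Pcna, the sliding clamp, had 165 and 182 CPM against 159 and 159 CPM, and the helicase subunit Mcm6 had 87.9 and 92.0 CPM against 101 and 96.4 CPM. Rrm2, a subunit of ribonucleotide reductase, had 183 and 181 CPM against 97.6 and 96.1 CPM. Ung, a glycosylase that removes uracil from DNA, was the 1 replication gene that was lower, with 2.74 and 3.60 CPM against 12.2 and 14.0 CPM. Replication-dependent histone genes, which carry no poly(A) tail when made in S phase and are then poorly captured, were higher for 30 of the 45 that passed the filter in each library, with medians of 1.19 and 1.37. H2bc4 was the 1 histone gene that was lower, with 54.5 and 54.5 CPM against 136 and 155 CPM.

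Chromatin and nuclear proteins were higher for 6 and 8 of 16, with medians of 0.92 and 0.96. The histone variant H2az1 had 2442 and 2334 CPM against 1262 and 1137 CPM, and Hmgb2, a DNA-bending protein, had 989 and 940 CPM against 295 and 286 CPM. Of 17 cell cycle transcription factors 4 and 6 were higher. Foxm1, an activator of mitotic genes, had 36.2 and 42.2 CPM against 10.2 and 10.4 CPM, and Lin54, the MuvB subunit that binds the CHR, had 26.3 and 28.4 CPM against 12.8 and 12.1 CPM. E2f1 had 40.5 and 46.2 CPM against 50.5 and 53.3 CPM. Tfdp1, the partner of E2F factors, had 177 and 176 CPM against 139 and 139 CPM, and Myc had 70.1 and 78.3 CPM against 67.3 and 75.2 CPM.

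**Figure D2:**
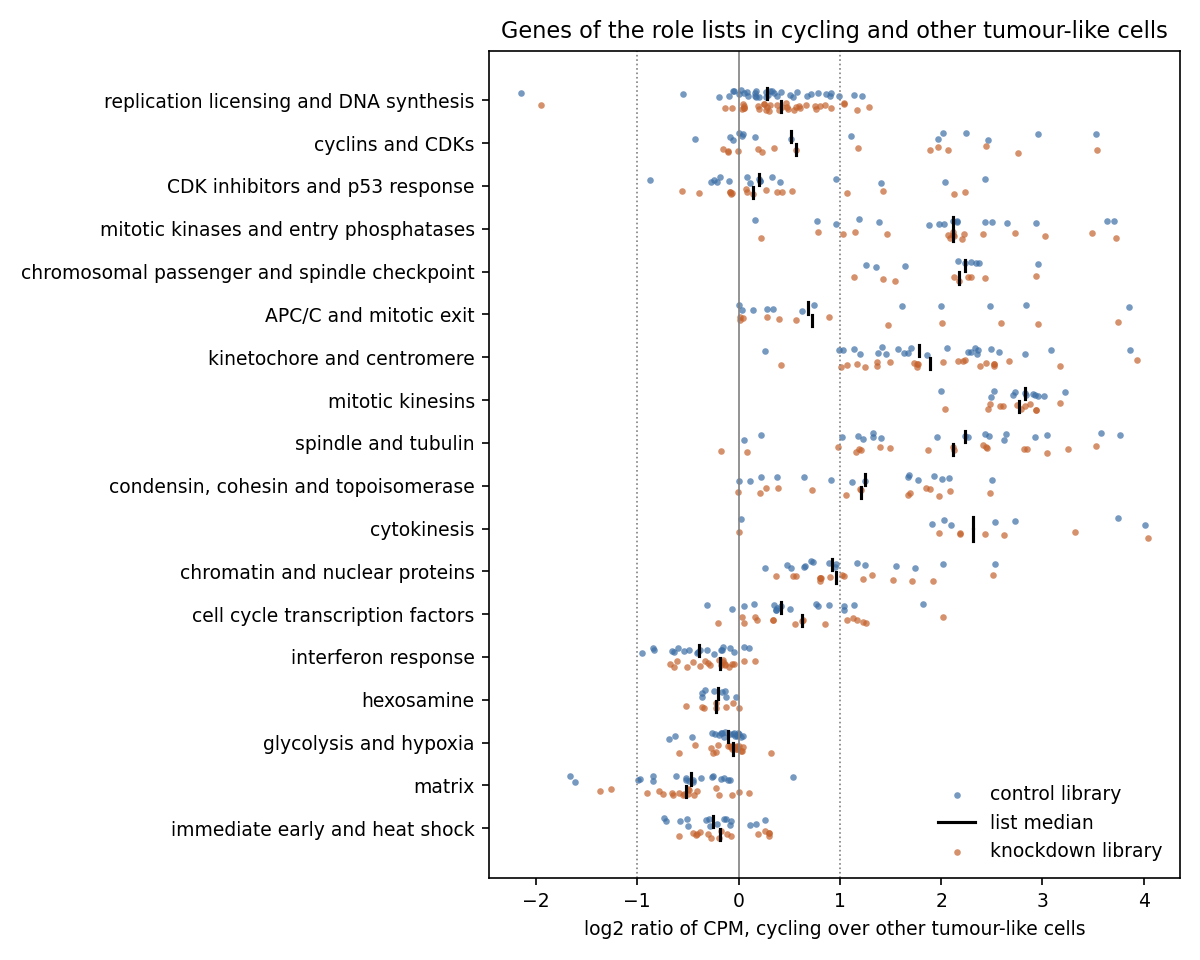
Log2 ratio of CPM in cycling over other tumour-like cells for each gene of the lists that passed the filter (points; vertical scatter has no meaning), control and knockdown library, with list medians as black bars and dotted lines at 2-fold. Mitotic lists such as the kinesins (medians 2.83 and 2.77) stand to the right, replication (0.28 and 0.42) near 0 and matrix (-0.47 and -0.52) to the left.

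Of the 287 genes higher in both libraries, 171 were outside the 13 cell cycle lists. The 10 with the firmest differences by their counting intervals were Aspm, Pif1, Arhgef39, Gas2l3, Depdc1a, Arhgap19, Prr11, Depdc1b, Parpbp and Pimreg. Aspm, a spindle pole protein whose loss causes small brains, had 84.7 (81.3 to 88.2) and 79.8 (76.3 to 83.5) CPM in cycling cells and 7.66 and 7.08 CPM in the others, log2 ratios of 3.47 and 3.49. Gas2l3, a linker of actin and microtubules, had 66.9 and 65.2 CPM against 7.62 and 7.71 CPM. Arhgef39 and Depdc1b had 16.7 and 15.1 CPM against 1.33 and 1.19 CPM, and 9.33 and 9.23 CPM against 0.889 and 1.03 CPM. The genes that were lower included Tcp11l2 (1.13 and 1.57 CPM against 7.38 and 8.28), Tmem150a (5.60 and 6.58 CPM against 20.8 and 21.5), the histone demethylase Kdm5b (12.1 and 13.2 CPM against 34.0 and 34.3), Ogn, a small matrix proteoglycan (7.83 and 13.1 CPM against 30.8 and 44.9) and Fabp4, a fatty acid carrier (13.7 and 35.3 CPM against 34.6 and 95.01). Aspn, a relative of Ogn, had 1.46 and 7.99 CPM against 12.2 and 23.0. Igfbp7, Igfbp3 and Gpihbp1 were also lower, but at least 94.2% of their UMIs in the other tumour-like cells of either library stood in 10 cells, so they describe those cells.

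Of the 20 matrix genes that passed the filter, 2 were lower in each library, against 0.846% and 0.796% of all genes, and none was higher. The list had medians of -0.47 and -0.52, and 1 and 2 of the 20 had a log2 ratio above 0. Col3a1, a chain of fibrillar collagen, had 773 and 939 CPM against 1513 and 1757 CPM, just short of 2-fold. Fn1, fibronectin, had 527 and 738 CPM against 753 and 1072 CPM, and Postn, periostin, had 100.4 and 144 CPM against 199.9 and 249 CPM. The lower genes were Col1a1 in both libraries, Tnc in the control and Mmp3 in the knockdown library. The fibroblast marker Dcn, a proteoglycan outside the list, moved with it, at 723 and 628 CPM against 1045 and 1143 CPM, and the part of such cells in the list's values was not tested.

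In the interferon, hexosamine, glycolysis and immediate early lists no gene was past 2-fold in this comparison. The 20 interferon response genes had medians of -0.39 and -0.18, with 2 of 20 above 0 in each library. Ifit1, an antiviral RNA-binding protein, had 86.1 and 115 CPM against 166 and 184 CPM, and Bst2, which tethers virus particles, had 1046 and 1386 CPM against 1161 and 1517 CPM. The 8 hexosamine pathway genes that passed the filter had medians of -0.20 and -0.22, with Uap1, the last enzyme of the pathway, at 77.5 and 87.0 CPM against 99.5 and 124 CPM. The 20 glycolysis and hypoxia genes had medians of -0.11 and -0.06, and Gapdh had 3539 and 3820 CPM against 3616 and 3716 CPM. The 16 immediate early and heat shock genes had medians of -0.25 and -0.18.

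Cycling cells were then ordered by 7 mitotic genes that the selection did not use (Aurka, Plk1, Ccnb2, Cenpe, Cenpa, Hmmr and Nek2), as summed UMIs after each cell was thinned to 5000 UMIs. In the control library 197 cells had 0 to 1 such UMIs, 329 had 2 to 4, 280 had 5 to 9 and 161 had 10 or more, and in the knockdown library the classes held 266, 407, 287 and 138 cells. Across these classes the summed replication list went from 3462 to 2673, 2003 and 1592 CPM in the control library and from 3477 to 2874, 2012 and 1605 CPM in the knockdown library. Replication-dependent histones went from 1352 to 587 CPM and from 1303 to 576 CPM between the first and last class. Pcna went from 264 to 85.8 CPM and from 268 to 93.1 CPM. The mitotic kinesins, none of which defined the classes, went the other way, from 482 to 1243 CPM and from 477 to 1142 CPM. Cdkn2d went from 106 to 213 CPM and from 100.4 to 213 CPM, while Cdkn1a went from 87.6 to 40.7 CPM in the control library. In the knockdown library Cdkn1a went from 87.2 to 81.7, 53.5 and 64.4 CPM, so it was higher again in the last class. The selected cells thus ran from cells rich in replication transcripts to cells rich in mitotic ones, in the same order in both libraries.

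**Figure D3:**
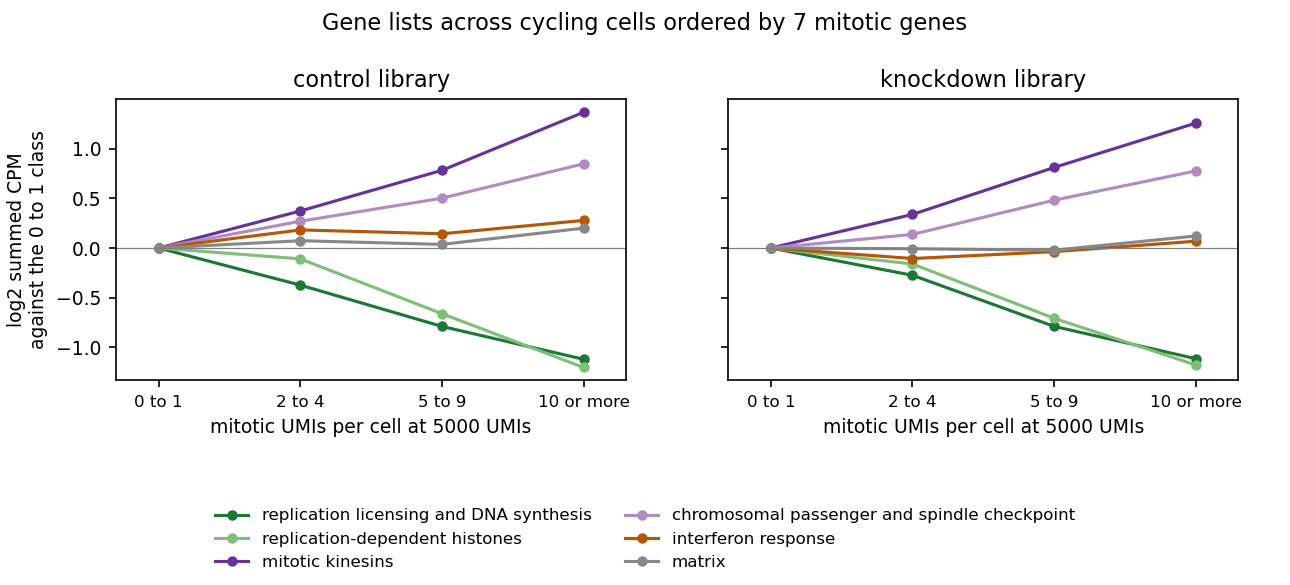
Summed CPM of 6 gene lists in cycling cells, as log2 against the class with 0 to 1 mitotic UMIs, over 4 classes of cells by their UMIs of 7 mitotic genes at 5000 UMIs per cell, for each library. Replication genes and histones go down and kinesins and the chromosomal passenger list go up, while the matrix and interferon lists stay within 0.3 of the first class.

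The genes of the selection rule sat at different places along this order. Top2a stayed between 623 and 762 CPM over the classes of the control library. Cenpf went from 140 to 742 CPM over the same cells. At least 5 mitotic UMIs were present in 45.6% (42.4 to 48.8) of control and 38.7% (35.8 to 41.7) of knockdown cycling cells, so the later class was a smaller share of the knockdown selection. At least 20 UMIs of replication genes were present in 15.3% (13.1 to 17.7) and 19.9% (17.5 to 22.3) of cycling cells. In the other tumour-like cells these shares were 13.2% and 13.4%. At least 10 such UMIs were present in 61.01% (57.9 to 64.1) and 63.5% (60.6 to 66.3) of cycling cells, against 30.9% and 29.8% of the others. The intervals of the libraries overlapped in cycling cells at both counts, and cycling cells stood further above the others at 10 UMIs. The share with at least 5 mitotic UMIs moved with the limit of the score, to 33.2% and 28.9% at 5 and 68.95% and 65.5% at 20. The shares by replication UMIs were not computed at other limits of the score, and none of these differences between libraries was tested.

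The rule left out a set of cells with mitotic transcripts, which was looked at after its values were seen. Among the other tumour-like cells, 133 control (3.55%) and 117 knockdown (3.27%) had at least 5 UMIs of the 7 mitotic genes at 5000 UMIs. Against the 441 and 425 selected cells that met this condition, these cells had similar levels of Cenpa, with 461 and 505 CPM against 501 and 547 CPM, and of Ccnb2, a B-type cyclin, with 247 and 223 CPM against 231 and 215 CPM. Their Cdc20 was 217 and 176 CPM against 300.2 and 293 CPM. Their Ube2c was 189 and 161 CPM against 1456 and 1395 CPM, and their Top2a 59.2 and 81.7 CPM against 668 and 659 CPM. Cdk1 was 56.2 and 53.9 CPM against 454 and 440 CPM, Cdkn2d 27.2 and 25.7 CPM against 172 and 189.5 CPM, and Prc1, which bundles the midzone of the spindle, 34.7 and 35.5 CPM against 333 and 317 CPM. Their median depth was 17381 and 14969 UMIs against 26899 and 20452 UMIs. Cenpa and Ccnb2 are 2 of the 7 genes that chose both sets, and the low Ube2c and Top2a follow from the rule, so nothing is read from these 4 genes. Cdk1 and Prc1 were used by neither choice but are among the genes that follow the score most closely, and Cdkn2d was also higher in cycling cells, so their low values are descriptions too.

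Across all tumour-like cells at 5000 UMIs, the genes outside the rule whose level followed the selection score most closely were Prc1, Birc5, Hmgb2, Cdk1, Cks2, Tpx2, Cenpa, Nusap1, Cenpe and Cdca8. Pearson's r was 0.68 over 4709 control cells and 0.64 over 4680 knockdown cells for Prc1, and 0.53 and 0.53 for Cdca8, the last of the 10. The lowest r belonged to Cd63, a membrane protein of lysosomes and exosomes, at -0.19 and -0.21, and to Col3a1, at -0.17 and -0.20. The cells of a library share its preparation, and the correlations are descriptions.

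The share of cycling cells differed along the matrix programme. Tumour-like cells were split into 4 classes of about equal size by their summed matrix UMIs at 5000 UMIs. Cycling cells were 29.99% of the class with the least matrix RNA in the control library, then 22.5%, 17.1% and 8.70% (7.04 to 10.6) in the class with the most. In the knockdown library the shares were 37.2%, 30.4%, 19.8% and 10.6% (8.95 to 12.4). The lowest and highest class differed by 21.3 and 26.6 percentage points, by 35.1 and 42.0 at a limit of 5 and by 10.3 and 10.5 at a limit of 20. Depth moved with matrix RNA, since the median UMIs went from 24161.5 to 15131 and from 18582.5 to 12836 over the classes. With the score read from thinned cells, the shares in the lowest and highest class were 33.6% and 11.0% in the control library and 39.6% and 11.2% in the knockdown library. The shares thus also fell at 1 depth, and the part of depth in the gradient was not tested.

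Other programmes gave smaller differences. By summed interferon response UMIs, the cycling share went from 25.6% to 15.7% (control) and from 29.1% to 19.9% (knockdown). Median UMIs fell along these classes too, from 22143.5 to 17343 and from 17164 to 14154. With the score read from thinned cells, the shares were 28.3%, 22.3%, 18.6% and 20.3% in the control library. In the knockdown library they were 31.2%, 26.2%, 22.8% and 21.3%, so only there did each class lie below the one before. Cells with at least 2 UMIs of Csmd3 or Robo2, genes of neuronal adhesion and guidance, were cycling in 10.9% (6.06 to 17.5) and 14.1% (9.05 to 20.6) of cases, against 20.9% and 24.2% of cells with none. Cells with at least 2 UMIs of Tnnt2 or Tafa5, a troponin and a secreted peptide, were cycling in 27.8% (23.0 to 33.0) and 31.7% (24.6 to 39.5) of cases, against 19.2% and 22.3% of cells with none. Cells with 1 UMI lay between these classes in both libraries, at 19.2% and 18.7% for Csmd3 or Robo2 and at 24.3% and 31.6% for Tnnt2 or Tafa5. For Cryab and Krt14 the shares were 15.5% (11.8 to 19.8) and 19.2% (15.9 to 23.0) with at least 2 UMIs, 22.6% and 24.5% with 1 UMI and 20.7% and 23.9% with none, so they did not change in 1 direction. Over the 4 classes of glycolysis genes the shares stayed between 18.3% and 22.5% in the control and between 21.5% and 24.9% in the knockdown library. Over the classes of immediate early and heat shock genes they went from 20.8% to 17.7% in the control and from 22.9% to 23.7% in the knockdown library, between the lowest and highest class. Splits by Csmd3 and Robo2, by Tnnt2 and Tafa5, by interferon and by matrix RNA gave the same direction in both libraries.

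**Figure D4:**
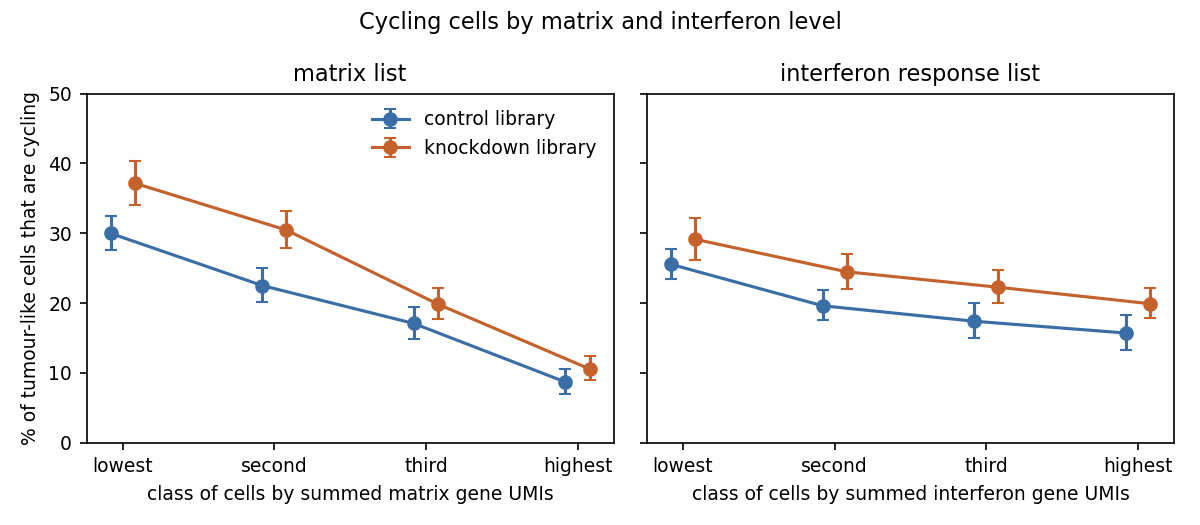
Share of tumour-like cells that are cycling (%, with exact 95% binomial intervals) in 4 classes of cells by summed matrix (left) or interferon (right) UMIs at 5000 UMIs per cell, control and knockdown library. Shares fall from 29.99% and 37.2% to 8.70% and 10.6% along the matrix classes, and less steeply along the interferon classes.

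Between the libraries, cycling cells had 375 genes at least 1.5-fold higher in the knockdown library (3.14% of 11942) and 102 at least 1.5-fold lower (0.854%). In the other tumour-like cells 180 were higher (1.51%) and 46 lower (0.385%). These counts moved with the settings, to 589 higher and 248 lower in cycling cells at a score limit of 20. With at least 500 UMIs per gene they were 106 and 19 in cycling cells and 49 and 12 in the others. The cycling cells were fewer, with 27325504 control and 24161223 knockdown UMIs against 75330478 and 59022670, and the part of counting error in the larger counts was not tested. None of the 217 genes in the 13 cell cycle lists, which include the 5 genes of the rule, was past 1.5-fold in either class. The list medians, as log2 of knockdown over control in cycling cells, stood between -0.12 for the chromosomal passenger list and 0.11 for replication, with the median of all genes at 0.04. Aurka had 123 (119 to 127) CPM in control and 97.6 (93.7 to 102) CPM in knockdown cells, a log2 ratio of -0.33, and Birc5 had 728 (718 to 738) and 725 (714 to 736) CPM. The same limit on 5 division genes chose the cells of both libraries, so nothing is read from the likeness of these levels.

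Of the 20 interferon response genes, 5 were at least 1.5-fold higher in the knockdown library in cycling cells, against 3.14% of all genes, and none was lower. All 20 had a log2 ratio above 0, with a median of 0.46 beside 0.04 for all genes. Cxcl10, a chemokine that draws T cells, had 227 (221 to 232) CPM in control and 415 (407 to 423) CPM in knockdown cycling cells, a log2 ratio of 0.87. Isg15, a ubiquitin-like modifier, had 237 and 378 CPM, and Rsad2, the antiviral enzyme viperin, had 65.0 and 116 CPM. The 5 genes were Cxcl10, Rsad2, Isg15, Ifi44 and Oasl1. In the other tumour-like cells all 20 were also above 0, with a median of 0.35 and 1 gene past 1.5-fold, Isg15, against 1.51% of all genes. Rsad2 had one of the larger differences between the classes, with log2 ratios of 0.83 (0.71 to 0.95) in cycling and 0.28 (0.22 to 0.34) in other cells.

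The hexosamine genes other than Gfpt2 stayed within 1.5-fold in cycling cells. Gfpt1, the paralog that catalyses the same step, had 28.2 and 29.0 CPM, and Ogt, the enzyme that attaches N-acetylglucosamine to proteins, had 66.4 and 70.2 CPM. The 8 genes had a median log2 ratio of 0.07. Glycolysis and hypoxia genes had a median of -0.01 with none past 1.5-fold. Of the 16 immediate early and heat shock genes, which respond to cell handling among other stimuli, 15 had a log2 ratio above 0 in cycling cells, with a median of 0.24, and 14 in the other tumour-like cells, with a median of 0.14. Dusp1, a phosphatase that acts on MAP kinases, was the 1 gene past 1.5-fold, with 46.7 and 71.6 CPM in cycling cells. This list moved with the interferon list between the libraries, and its part in that difference was not tested.

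Matrix genes moved both ways between the libraries, with 4 of 20 higher and 3 lower in cycling cells, against 3.14% and 0.854% of all genes, and a median of 0.23. Tnc, the matrix protein tenascin-C, had 2.31 (1.77 to 2.95) and 10.4 (9.14 to 11.8) CPM, a log2 ratio of 2.17. Mmp2, a gelatinase, had 47.5 (44.99 to 50.2) and 20.4 (18.6 to 22.2) CPM, a log2 ratio of -1.22. The other tumour-like cells had the same direction for both, at 0.92 and -0.83. Mmp3, stromelysin, had 10.1 and 3.39 CPM in cycling cells but 6.97 and 8.76 CPM in the others.

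The genes with the firmest increase in the knockdown library, by their counting intervals, were Gm47223, Aspn, Tnc, Gm47221, Bgn, Ptcra, Fabp4, Cryab, Gm4316 and Ptgs2. Cryab, a small heat shock protein, had 41.1 (38.7 to 43.6) CPM in control and 96.5 (92.6 to 100.5) CPM in knockdown cycling cells, a log2 ratio of 1.23. Bgn, the proteoglycan biglycan, had 9.70 and 31.7 CPM, and 45.3% and 52.0% of its UMIs stood in 10 cells of each library. Other increases were also held by few cells, since 10 knockdown cycling cells held 60% of the Ptcra, 46.6% of the Aspn, 42.1% of the Gm4316, 40.2% of the Fabp4 and 39.8% of the Tnc UMIs. The same share was 22.4% for Cryab and 24.0% for Ptgs2. The 10 firmest decreases were in Krt16, Klk8, Sparcl1, Anxa8, C4b, Espn, Ccl5, Spp1, Mmp3 and Mmp2. Krt16, a keratin, had 24.4 (22.6 to 26.3) and 1.08 (0.703 to 1.58) CPM, a log2 ratio of -4.50. Klk8, a secreted protease, had 36.6 and 5.96 CPM, and Ccl5, a chemokine that attracts leukocytes, had 210 (204 to 215) and 83.6 (80.0 to 87.3) CPM.

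Several of the decreases also rested on a small set of cells. In the control library 10 cycling cells held 51.7% of the Krt16 UMIs and 35.5% of the Klk8 UMIs. Without the cells of at least 5 Krt16 and Klk8 UMIs per 10000, as for Gfpt2 above, 918 control and 1095 knockdown cycling cells remained. The log2 ratio then was -0.09 for Ccl5 in place of -1.33, -0.11 for Spp1 in place of -1.41, -0.13 for Espn in place of -1.64 and -0.47 for Mmp3 in place of -1.58. It was -1.67 for Krt16, -0.89 for Klk8, -1.25 for Sparcl1, -1.12 for C4b and -1.82 for Anxa8, and Mmp2 (-1.03) and Cryab (1.25) kept values near their first ones. The 49 control and 3 knockdown cycling cells were left out by Krt16 and Klk8, which themselves differed between the libraries. These ratios are therefore descriptions, and the part of those cells in the lower Ccl5 and Spp1 was not tested. In the other tumour-like cells Ccl5 had 162 and 114 CPM and Spp1 40.1 and 19.5 CPM, log2 ratios of -0.51 and -1.04 with all cells kept. Of tumour-like cells with at least 2 Krt16 or Klk8 UMIs at 5000 UMIs, 56 of 214 (26.2%) were cycling in the control and 9 of 38 (23.7%) in the knockdown library, against 20.3% and 23.5% of cells with none.

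**Figure D5:**
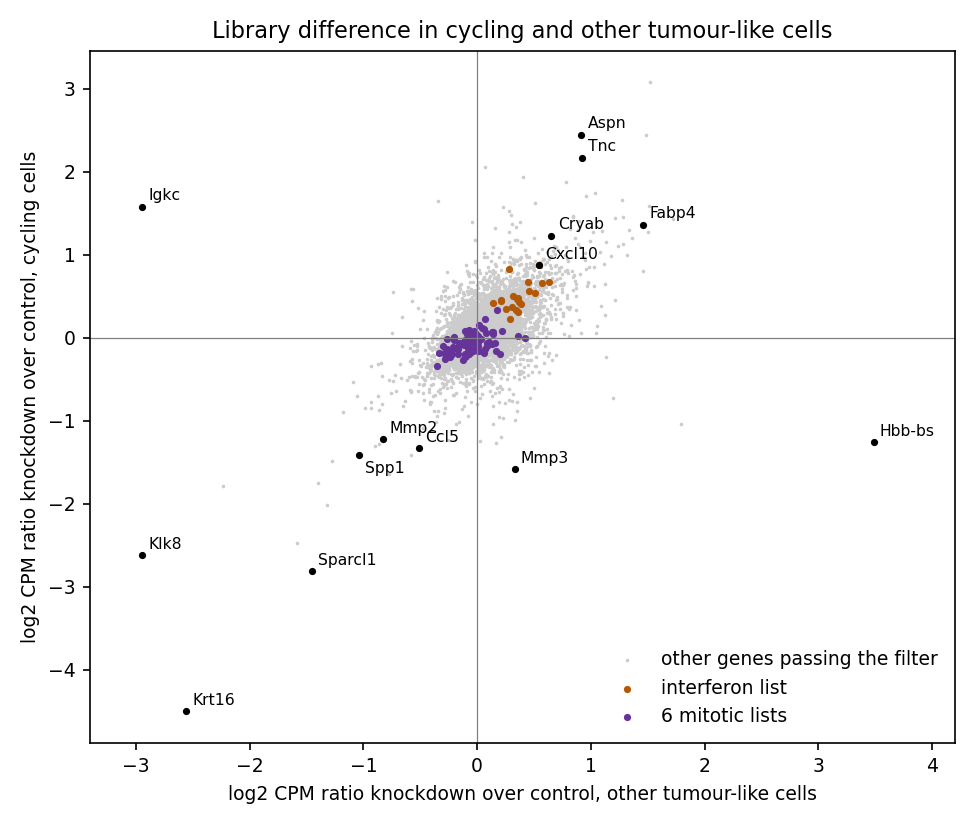
Log2 CPM ratio of knockdown over control for each gene that passed the filter, in other tumour-like cells (x axis) and in cycling cells (y axis), with interferon genes in orange, 6 mitotic lists in purple and named genes in black. Mitotic genes lie near 0 on both axes, the 20 interferon genes above 0 on both, and Hbb-bs, Igkc and Mmp3 have opposite signs on the axes.

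Cycling leukocytes of the same libraries, 317 control and 207 knockdown cells were taken with the same limit on the same 5 genes. Birc5, which the limit did not use, had 669 and 638 CPM in them, against 222 and 198 CPM in all leukocytes and 728 and 725 CPM in cycling tumour-like cells. Cdkn2d had 154 and 147 CPM in them, against 55.0 and 53.9 CPM in all leukocytes and 147 and 146 CPM in cycling tumour-like cells. Xist had 315 and 201 CPM in cycling leukocytes and 2.60 and 2.40 CPM in cycling tumour-like cells. The 3 tumour markers summed to 312 and 355 CPM in the cycling leukocytes, above the 221 and 249 CPM of all leukocytes, and the part of doublets and free RNA in this was not tested.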

How the data were processed

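RNA of single cells from 2 libraries was captured in droplets (10x Genomics). The authors deposited raw UMI counts per gene and cell. The matrix header names Cell Ranger 6.1.0, while Cell Ranger 3.1.0 is named per the submitters' processing notes. Build, annotation and cell filters are not given in the sources used here. From these counts, UMIs were summed per gene over the cells of a class and library and divided by the class total (CPM). Intervals are exact Poisson for CPM and Clopper-Pearson for shares, at 95%, and cover counting error only. A log2 ratio's range combines the ends of both intervals. Genes needed at least 100 UMIs over the tumour-like cells of each library. A fold of 2 between classes and of 1.5 between libraries counted as higher or lower. The selection score and the shares of cycling cells use all UMIs of a cell. Thinned values stand beside the overall shares and the matrix and interferon classes. Cells were thinned to 5000 UMIs to order cycling cells, to form the programme classes and to correlate genes with the score. Symbols given to more than 1 identifier (36) were kept apart by identifier. Doublets were ranked with Scrublet in scanpy 1.11.5 under Python 3.11.15, which marked 1148 control and 1322 knockdown cells, and kept. TMM factors came from edgeR 4.0.16. The ratio code was tested on simulated counts. Members, lists and programmes were chosen with earlier results of these data known. Named genes were the genes of the rule and markers, 2 to 4 of the highest CPM per list and those against their list, the 10 firmest by interval bound in each direction (between classes outside the lists, between libraries over all genes), and the 5 in each direction whose library ratio differed most between classes. Other genes are named for their role.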

Additional observations from a re-analysis of the deposited data

Results flagged for a closer look

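Among the genes chosen by the naming rule, 5 had library differences of opposite sign in cycling and other tumour-like cells with both counting ranges away from 0. The difference between the classes was not tested, since each group had 1 library. Mmp3 had a log2 ratio of knockdown over control of -1.58 in cycling cells and 0.33 in the others. Without the cells of at least 5 Krt16 and Klk8 UMIs per 10000, the cycling value was -0.47. Acta2, smooth muscle actin, had -1.04 in cycling and 1.80 in other cells, from 56 control and 24 knockdown UMIs in the cycling cells. In 10 cells stood 89.3% and 100% of these, and 68.4% of the knockdown UMIs in other cells. Hbb-bs, a beta-globin of red cells, had -1.26 and 3.49. Of its 306 UMIs in control cycling cells 284 stood in 1 cell, as did 912 of 1273 in knockdown other cells. Igkc, the immunoglobulin kappa chain, had 1.58 and -2.95, and 1565 of its 1634 UMIs in control other cells stood in 1 cell. Stmn1, a protein that takes microtubules apart, had 0.094 (0.050 to 0.137) and -0.070 (-0.115 to -0.026), far below 1.5-fold in both.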

How the results depend on the processing

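No paired analysis was possible because each group had 1 library and the labels carry no replicate numbers. Of the 167 alternative values of summary results, 125 stayed within the main value's counting interval (shares, ratios and gaps) or within 1.5 times of it (counts of genes). For named genes, 2978 alternative values stayed within the main value's interval, 567 moved out of it and 6 changed sign. Of those that moved, 170 were at a limit of 20, 147 at a limit of 5 and 111 with the mean of per-cell CPM. For list medians, 568 stayed within the median bounds of their genes and 62 moved. The share of cycling cells was 33.9% (control) and 36.05% (knockdown) at a limit of 5, 9.92% and 9.91% at 20, 21.8% and 24.9% with at least 2 UMIs of the tumour genes, 23.3% and 24.9% thinned, 18.2% and 18.0% with 5 other mitotic genes, and 25.6% (knockdown) at 10000 UMIs or more. The ratio of the shares turned to 0.9997 at 20 and 0.992 with the other genes. Without the filter on low counts, 1642 and 1715 genes were higher and 992 and 1050 lower in cycling cells; at 500 UMIs, 40 and 31 were lower, and at a limit of 20 153 were lower (control). Between libraries, cycling cells had 589 higher and 248 lower at a limit of 20, 2391 and 1477 without the filter and 106 and 19 at 500 UMIs, and other cells 2406 and 1772 without it and 49 and 12 at 500. Cells with at least 5 mitotic UMIs were 33.2% and 28.9% of cycling cells at a limit of 5 and 68.95% and 65.5% at 20. The matrix classes differed by 35.1 and 42.0 points at 5 and by 10.3 and 10.5 at 20. With 50 bases after the start added, the CHR stood at 48.95% of division and 17.9% of all start sites, CCAAT at 37.4% and E2F at 4.60% of all, E2F at 10.5% and CHR with CCAAT at 37.8% of division sites. At a limit of 5, the log2 ratio of cycling over other cells (control) turned to 0.67 for Gpihbp1, 1.30 for Igfbp3 and 1.78 for Igfbp7, and the library ratio of Igkc to -3.57. At 20, that of Hbb-bs turned to 3.25 and that of Robo2 to -0.26. The cause was not tested. TMM and median-of-ratios scaling shifted library ratios by 0.04 in cycling and 0.03 in other tumour-like cells. A difference under the counting intervals was not detectable at this depth, and 1 library per group leaves the spread between tumours unknown.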
